A study of Mus musculus with 32 samples.

Results

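The 35 genes described here code for the heat shock chaperones of the cytosol and the mitochondria in mouse liver, with their co-chaperones and regulators. They were taken by name from the table of counts, which lists 55471 genes. Identifiers were paired with symbols through the deposited log2 table for 34 of them and through a gene name table for Hspa1a. All 35 passed the filter on low counts and were tested, among 14456 tested genes. Hspa1a passed it only through the groups of mice in which it was high. By role they fall into 4 cytosolic HSP70 proteins, 3 HSP110 proteins, 2 HSP90 proteins, 3 mitochondrial chaperones, 3 small heat shock proteins, 6 J-domain proteins, 2 regulators, 5 co-chaperones and 7 subunits of the CCT chaperonin.

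Polyadenylated RNA was sequenced from whole liver of male C3H/HeNCrl mice fed a high fat diet. The mice were kept in short light (SL) or long light (LL) photoperiods, 16 mice each, and livers were taken at ZT0, ZT6, ZT12 and ZT18, where ZT is zeitgeber time in hours of the light cycle. This gives 8 groups of 4 mice, SL ZT0 to SL ZT18 and LL ZT0 to LL ZT18, so n = 4 per group throughout. All 8 groups share the strain, sex and diet, so neither the diet nor the strain has a comparison here. The hours of light in SL and LL, the event that sets ZT0 and the ages of the mice are not stated in the labels.

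Heat shock chaperones bind unfolded protein chains and help them reach or regain their shape. HSP70 proteins hold short stretches of a chain through a cycle of ATP binding and hydrolysis. J-domain proteins bring the chain and start that hydrolysis, and HSP110 proteins exchange the nucleotide. HSP90 proteins act later, on nearly folded clients such as steroid receptors and kinases, together with dedicated co-chaperones. The transcription factor HSF1 raises the transcription of many of these genes by binding inverted repeats of the unit GAA. In rodent liver the transcripts of several of them are known to vary over the day, following feeding and body temperature.

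Libraries held 9095615 to 27462776 counted reads (median 15665632), and levels are given as CPM, the reads of a gene scaled to the total of its library. Each library is labelled as a separate sample, and p-values measure the spread between these samples. Summed levels of 8 hepatocyte markers lay between 111736 and 141615 CPM in the 32 libraries, with every marker detected. Mean correlations with the other libraries of a group lay between 0.981 and 0.989, except for LL ZT12 replicate 3 at 0.969. Summed levels of 12 skeletal muscle markers had a median of 57.9 CPM at LL ZT18 (range 16.9 to 265), and 1 LL ZT0 library reached 122 CPM. In the other 6 groups the highest value was 45.3 CPM, and 10 of the 12 muscle markers were at 0 in at least 1 library. Gene positions below are those of GENCODE M21 on GRCm38. In whole liver, fewer cells of a type and less RNA per cell cannot be told apart.

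Short stretches of promoter sequence are shown first for some of the members that hold the inverted repeat described above for HSF1. Hspa1a and Hspa1b also share their letters there. The stretches were picked for holding a match and say nothing of shared reads, which are given below from the transcripts. They come from RefSeq promoter windows on GRCm38.p6, which run from 250 bases before to 50 bases after a transcript start. Windows were found for 27 of the 35 members, and none for Hspa8, Hsp90aa1, Hsp90ab1, Hspa9, Cryab, Hsf1, St13 and Cct4. All are written 5′ to 3′ on the strand of the gene. Capitals mark the letters that match an inverted repeat of GAA units. The stretches of Hspa1a (chr17:34972217-34972276, minus strand) and Hspb1 (chr5:135887789-135887848, plus strand) lie before the RefSeq start, as do those of Hspa1b (chr17:34959299-34959358, minus strand), Hspe1 (chr1:55088053-55088082, plus strand) and Dnajb6 (chr5:29735846-29735875, plus strand). The stretch of Chordc1 (chr9:18292257-18292286, plus strand) spans the start, and that of Hsph1 (chr5:149636287-149636306, minus strand) lies after it. The stretches of Dnajb6, Chordc1 and Hsph1 lie inside the annotated genes. Annotated starts are chr5:29735688 for Dnajb6 and chr9:18292125 for Chordc1.
Hspa1a: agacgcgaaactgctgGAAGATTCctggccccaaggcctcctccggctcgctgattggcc
Hspa1b: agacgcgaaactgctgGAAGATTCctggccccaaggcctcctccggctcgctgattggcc
Hspb1: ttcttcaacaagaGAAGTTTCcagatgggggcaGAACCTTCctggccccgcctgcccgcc
Hspe1: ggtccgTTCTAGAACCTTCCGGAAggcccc
Dnajb6: ctccgaGAATCTTCCGGAAcgctagaccag
Hsph1: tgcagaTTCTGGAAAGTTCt
Chordc1: caaccgGAACGTTCGGGAAAATTCCTGAAg

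The Hspa1a and Hspa1b stretches are identical, and over the whole windows of 300 bases the promoters differ at 4 bases (98.7% identical). Hspd1 has 2 RefSeq windows, on the strand opposite to Hspe1. The window nearer the annotated start of Hspd1 (chr1:55088194-55088493) shares 4 bases with that of Hspe1. The other (chr1:55087883-55088182), which shares 285 bases and holds the Hspe1 stretch, belongs to a second start inside the annotated gene, so the stretch lies within Hspd1 as annotated and before that internal start. A run of 3 units, spelled GAANNTTCNNGAA or TTCNNGAANNTTC, was found in the windows of 5 of the 27 members (18.5%), namely Hsph1, Hspd1 (in the window of its internal start), Hspe1, Dnajb6 and Chordc1. Of all 27025 genes with a window, 0.662% held one. Runs of 2 units, spelled GAANNTTC or TTCNNGAA and contained in every run of 3, stood in 15 members (55.6%) and in 17% of all genes. Among genes that changed over the day in SL and in LL, Hspa1a, Hspa1b, Hsph1, Hspe1 and Hspb1 held such a run. So did Hspb8, Dnaja1, Dnajb4, Dnajb6 and Chordc1, while the windows of Hspa2, Hspa4l, Dnaja2, Dnajb1, Ahsa1 and Stip1 held none. Hspd1, Fkbp4 and Bag3, which changed in only SL or only LL, held one. Among genes that changed in neither, Cct2 and Cct5 held such a run, and Hspa4, Dnajb2, Tcp1, Cct3, Cct7 and Cct8 held none. A link between these runs and daily change was not tested. The CCAAT box (CCAAT on either strand) stood in 12 members (44.4%) and in 41.1% of all genes. Letters that match are a description of these windows and not measured binding sites.

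Per length of annotated exon, the most abundant members were Hsp90ab1 at 233 CPM per kb (mean of 32 libraries, range 169 to 311), Hspd1 at 144 (range 111 to 165), Hspa9 at 139.9 (range 88.0 to 165) and Hspa8 at 89.0 CPM per kb (range 51.9 to 161). The ranges of Hspd1 and Hspa9 overlapped across nearly their whole width. At the other end stood Hspa1a at 0.190 CPM per kb (range 0 to 0.850), Hspa2 at 0.694 (range 0.166 to 1.6), Hspa4l at 1.57 (range 0.827 to 2.52) and Hspa1b at 1.85 CPM per kb (range 0.602 to 8.10). The cytosolic HSP70 genes therefore included both the constitutive Hspa8, near the top of the order, and the stress-inducible Hspa1a and Hspa1b, at its lower end.

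The first comparison asked which members changed over the day in SL and which in LL. In SL, 21 of 35 members did (edgeR quasi-likelihood test, Benjamini-Hochberg adjusted over all tested genes, threshold 0.05), where 19.1% of all tested genes were called. In LL, 20 of 35 did, against 18.3% of all tested genes, and 11 when the LL groups were fitted alone. Over all genes the fit of LL alone called 1655, against 2650 in the fit of all groups. The fit of LL alone lost Hsp90ab1, Hspe1, Hspb8, Dnaja2, Dnajb4, Bag3, Chordc1 and Stip1, and Hspa1a did not pass its filter on low counts. In both photoperiods 19 were called (12.1% of all tested genes), which were the 4 HSP70 genes, Hsph1, Hspa4l, both HSP90 genes, Hspe1, Hspb1, Hspb8, Dnaja1, Dnaja2, Dnajb1, Dnajb4, Dnajb6, Chordc1, Ahsa1 and Stip1. Hspd1 and Fkbp4 passed in SL and not in LL, and Bag3 passed in LL and not in SL. Neither photoperiod gave a call for the other 13, Hspa4, Hspa9, Cryab, Dnajb2, Hsf1, St13 and the 7 CCT subunits. Leaving out LL ZT12 replicate 3 gave 23 members in SL and 25 in LL. Without the 4 libraries highest in muscle markers they were 20 and 14, and the LL calls lost were those of Hsp90ab1, Dnajb4, Bag3, Chordc1, Ahsa1 and Stip1. All genes called were then 2353 in SL and 1797 in LL, against 2756 and 2650 with all libraries.

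In SL the highest group mean was at ZT6 for 14 of the 21 (66.7%) and at ZT12 for the other 7, while among all called genes ZT6 was highest for 30.5% and ZT12 for 19.7%. In LL it was at ZT18 for 17 of the 20 (85.0%), against 20.8% of all called genes. Hspe1 and Dnajb6 were highest at ZT12 in LL, and Hspb1 at ZT0. The LL ZT12 mean of Hspe1 included replicate 3 at 114 CPM, while the other mice there stood at 79.5 to 88.6 CPM. At LL ZT18 its mice stood at 83.6 to 93.0 CPM. In SL the lowest group was ZT0 for 12 members, ZT18 for 8 and ZT12 for 1.

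**Figure D1:**
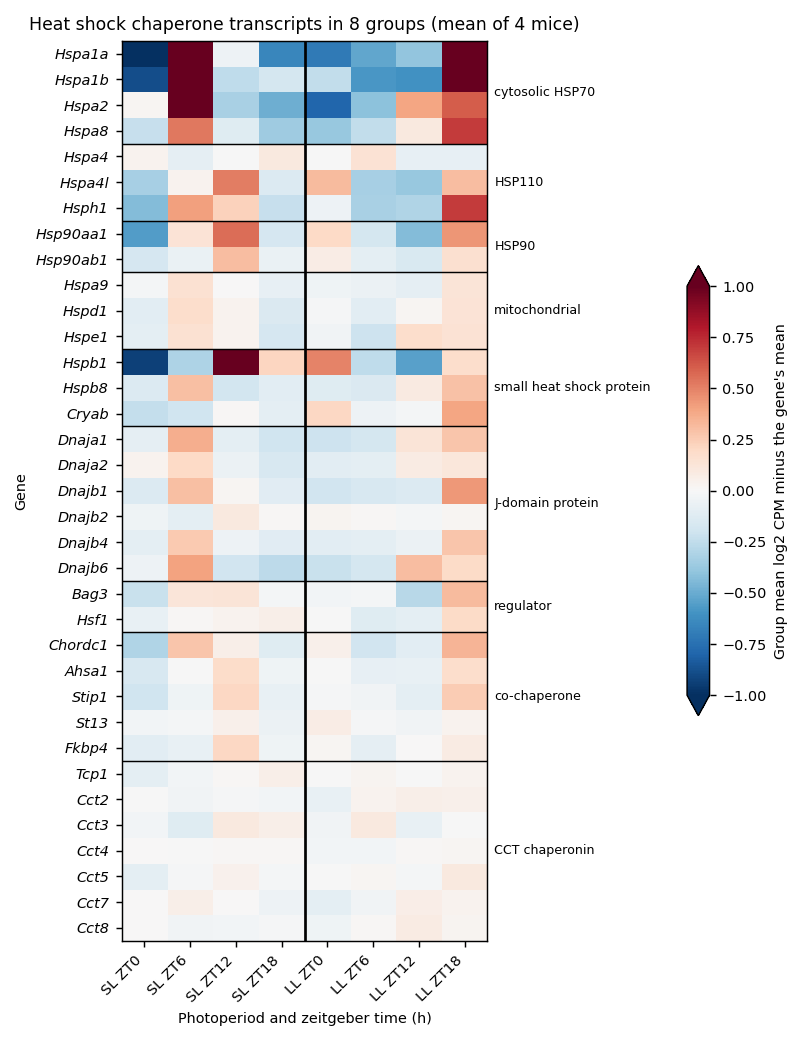
Group mean log2 CPM of the 35 genes (rows, by role) in the 8 groups (columns), each gene centred on its own mean over the groups; red is above and blue below that mean, and the colour scale ends at 1 on the log2 scale, which some groups of Hspa1a, Hspa1b and Hspb1 exceed. At SL ZT6 the HSP70 genes and most J-domain genes are red, and at LL ZT18 most genes outside the CCT rows are. At SL ZT12 the HSP90 genes, Hspa4l and Hspb1 are among the red rows, while the HSP70 genes lie below their means. The 7 CCT rows are nearly white.

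With samples every 6 h, the contrasts of ZT0 with ZT12 and of ZT6 with ZT18 give the amplitude and the peak time of a 24 h wave. The amplitude is the distance on the log2 scale from the middle of the wave to its peak. Over all 35 members the median amplitude was 0.19 in SL and 0.17 in LL, beside 0.15 and 0.16 over all tested genes. The 19 members called in both photoperiods had medians of 0.28 and 0.30, beside 0.36 and 0.35 for the 1752 genes called in both. Median amplitudes by role ran from 0.80 in SL and 0.97 in LL for the HSP70 genes to 0.06 and 0.05 for the CCT subunits.

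**Figure D2:**
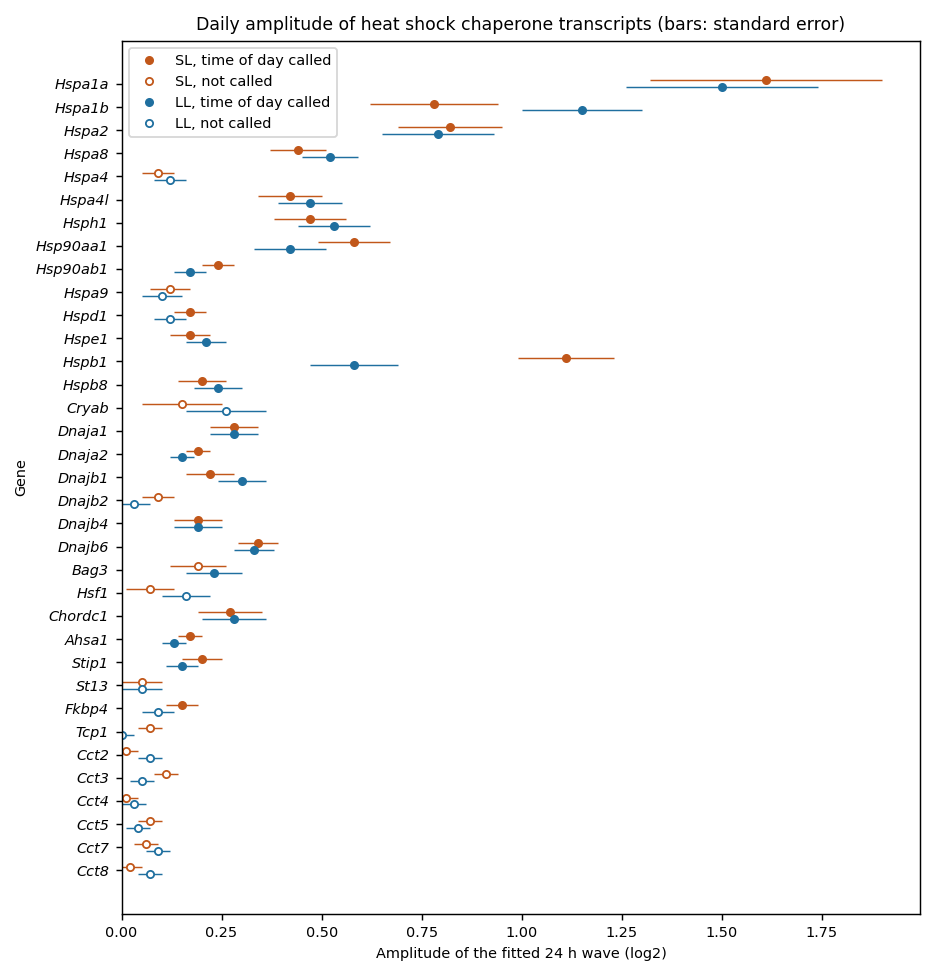
Amplitude of the fitted 24 h wave (log2, horizontal axis) of each of the 35 genes in SL (orange) and LL (blue), with bars of 1 standard error; filled points mark genes called for time of day in that photoperiod. Hspa1a has the largest amplitudes, 1.61 in SL and 1.5 in LL, and Hspb1 is the gene whose SL amplitude (1.11) stands farthest above its LL amplitude (0.58).

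Among the cytosolic HSP70 genes, Hspa1a and Hspa1b code for the stress-inducible HSP70 protein, Hspa8 for its constitutive relative HSC70 and Hspa2 for a relative best known from the testis. All 4 changed over the day in SL and in LL, were higher in SL than in LL at ZT6 and were lower at ZT18. Hspa1b (chr17:34956436-34959238, minus strand) stood at 1.71, 1.94, 1.83 and 3.5 CPM at ZT0, 7.92, 10.3, 12.1 and 9.94 at ZT6, 3.11, 3.04, 3.11 and 4.53 at ZT12, and 2.19, 5.11, 3.90 and 3.79 at ZT18 in SL. In LL its mice stood at 4.99, 3.45, 2.09 and 3.78 CPM at ZT0, 3.20, 2.86, 1.69 and 3.29 at ZT6, 3.54, 1.72, 2.66 and 2.91 at ZT12, and 22.7, 10.7, 12.2 and 6.13 at ZT18. Every SL ZT6 mouse was above every other SL mouse, and every LL ZT18 mouse above every other LL mouse, with replicate 1 the highest of all 32. The difference SL minus LL was 1.90 ± 0.31 (log2, SE) at ZT6 with an edgeR adjusted p of 5.00e-05 and -1.78 ± 0.30 at ZT18 with an adjusted p of 0.000135.

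Hspa1a (chr17:34969190-34972156, minus strand) followed the same times at a far lower level. In SL its mice stood at 0, 0.102, 0.0732 and 0.283 CPM at ZT0, 1.31, 1.80, 1.29 and 1.52 at ZT6, 0.173, 0.546, 0.453 and 0.270 at ZT12, and 0.164, 0.482, 0.0735 and 0.124 at ZT18. In LL they stood at 0.147, 0.176, 0.110 and 0.266 CPM at ZT0, 0.458, 0.110, 0.108 and 0.274 at ZT6, 0.316, 0.318, 0.135 and 0.227 at ZT12, and 2.52, 1.39, 2.28 and 0.527 at ZT18. The groups at SL ZT6 and LL ZT18 did not overlap with any other group of the same photoperiod. Between photoperiods, SL minus LL was 2.78 ± 0.48 at ZT6 (edgeR adjusted p = 9.98e-05) and -2.84 ± 0.47 at ZT18 (adjusted p = 0.000129). These values rest on 0 to 41 reads per library (median 4.50), and the SL ZT0 group held 0 to 3 reads in each. Only mice at SL ZT6 and LL ZT18 stood above 0.546 CPM, and through them Hspa1a passed the filter on low counts. Its calls and amplitudes are therefore a description and no independent support for those times. Of the stretches of 50 bases in Hspa1a transcripts, 58.8% also occur in Hspa1b, and 62.3% of those of Hspa1b occur in Hspa1a, so their reads may be shared and the levels of each are uncertain. Hspa1a also overlaps Gm20481 on the opposite strand by 2225 bases, and the strand setting of the counting is not given in the sources used here.

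Hspa8 (chr9:40800984-40810087, plus strand), whose transcript is abundant, moved at the same times by less. Its group means, given outside the naming rule because it is the abundant gene of the family, were 314 ± 33.0 CPM at ZT0, 529 ± 43.6 at ZT6, 338 ± 41.6 at ZT12 and 287 ± 23.7 at ZT18 (SD, n = 4) in SL. The LL means were 288 ± 66.2 CPM at ZT0, 313 ± 54.7 at ZT6, 395 ± 51.6 at ZT12 and 599 ± 92.2 at ZT18. All 4 SL ZT6 mice and all 4 LL ZT18 mice were above the other mice of their photoperiod. SL minus LL was 0.76 ± 0.14 at ZT6 (edgeR adjusted p = 0.000243) and -1.06 ± 0.14 at ZT18 (adjusted p = 5.51e-06), while at ZT0 and ZT12 it was 0.12 ± 0.14 and -0.23 ± 0.14 and did not pass. Of its stretches of 50 bases, 34.6% also occur in the pseudogene Gm15459.

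Hspa2 (chr12:76404176-76406938, plus strand) peaked earlier. In SL its mice stood at 2.24, 1.74, 2.49 and 0.756 CPM at ZT0, 3.66, 4.23, 2.73 and 3.09 at ZT6, 0.950, 1.40, 1.42 and 1.42 at ZT12, and 1.37, 0.820, 1.54 and 0.931 at ZT18. In LL they stood at 1.10, 0.819, 0.440 and 1.53 CPM at ZT0, 1.19, 1.27, 1.0 and 1.37 at ZT6, 1.71, 2.17, 2.39 and 2.57 at ZT12, and 3.26, 2.56, 2.35 and 2.17 at ZT18. The SL ZT6 mice were again above all other SL mice, whereas in LL the ZT12 and ZT18 mice overlapped with each other and stood above all ZT0 and ZT6 mice. The difference SL minus LL was 1.5 ± 0.26 at ZT6 (edgeR adjusted p = 9.92e-05) and -1.17 ± 0.27 at ZT18 (adjusted p = 0.00443). The fitted waves of Hspa2 peaked at 4.81 h (SE 0.66) in SL and 14.93 h (SE 0.66) in LL.

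**Figure D3:**
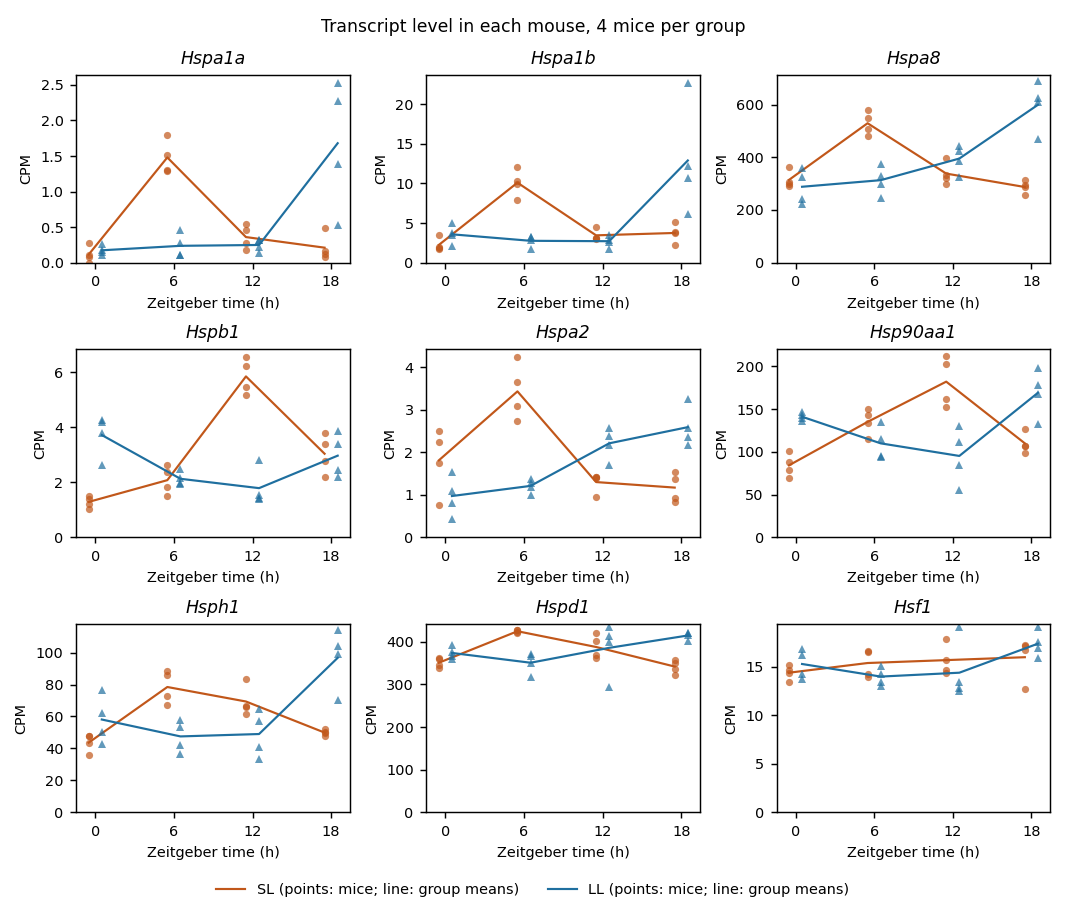
CPM (vertical axis, linear from 0) against zeitgeber time (horizontal axis, h) for 9 members; orange circles are SL mice, blue triangles LL mice and lines join the group means of 4 mice. Hspa1a, Hspa1b and Hspa8 are high at SL ZT6 and LL ZT18, Hsp90aa1 and Hspb1 at SL ZT12, and Hsf1 lies between 12.5 and 19.1 CPM in all 32 mice.

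The HSP110 proteins release nucleotide from HSP70. Hsph1, also known as HSP105, and Hspa4l changed over the day in SL and in LL, and Hspa4 in neither. Hsph1 (chr5:149614287-149636376, minus strand) stood at 43.3, 35.6, 47.6 and 47.9 CPM at ZT0, 67.1, 85.8, 72.8 and 88.5 at ZT6, 66.3, 65.8, 61.4 and 83.8 at ZT12, and 50.2, 52.3, 47.5 and 49.4 at ZT18 in SL. In LL its mice stood at 50.2, 76.8, 42.7 and 62.5 CPM at ZT0, 57.9, 53.6, 36.4 and 42.0 at ZT6, 56.9, 41.1, 33.6 and 64.5 at ZT12, and 114, 99.3, 104 and 70.3 at ZT18. In SL the ZT6 and ZT12 mice overlapped with each other and stood above all ZT0 and ZT18 mice, and in LL 3 of the 4 ZT18 mice were above all other LL mice. Between photoperiods, SL minus LL was 0.73 ± 0.18 at ZT6 (edgeR adjusted p = 0.00521) and -0.96 ± 0.18 at ZT18 (adjusted p = 0.000653).

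Hspa4l (chr3:40744495-40796103, plus strand) had a later fitted peak than the HSP70 genes. Its means were 14.4 ± 3.24 CPM at ZT0, 18.5 ± 2.26 at ZT6, 25.7 ± 2.87 at ZT12 and 16.3 ± 1.80 at ZT18 in SL. LL mice averaged 22.4 ± 2.45 CPM at ZT0, 14.3 ± 2.30 at ZT6, 14.1 ± 3.62 at ZT12 and 22.5 ± 4.07 at ZT18. The SL ZT12 mice were above all other SL mice, and SL minus LL was 0.86 ± 0.16 at ZT12 (edgeR adjusted p = 0.000340) and -0.63 ± 0.16 at ZT0 (adjusted p = 0.00997). Leaving out single libraries removed the ZT0 call of Hspa4l at least once. Hspa4, the most abundant of the 3 genes per length, stood between 96.9 and 157 CPM in all mice. It was called in the photoperiod by ZT interaction (edgeR adjusted p = 0.0354) and at no single ZT. Its amplitudes were 0.09 in SL and 0.12 in LL, with fitted peaks at 18.78 h (SE 1.66) and 4.99 h (SE 1.35). SL minus LL was -0.23 ± 0.08 at ZT6 and 0.18 ± 0.08 at ZT18, the signs opposite to those of Hsph1. At both times the SL and LL mice did not overlap for Hspa4.

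Both HSP90 genes changed over the day in SL and in LL, with SL ZT12 and LL ZT18 the highest groups. Hsp90aa1 (chr12:110690605-110702728, minus strand) codes for the inducible form. In SL its mice stood at 78.6, 69.6, 101 and 87.8 CPM at ZT0, 115, 143, 134 and 150.0 at ZT6, 203, 152, 162 and 212 at ZT12, and 107, 127, 98.5 and 107 at ZT18. In LL they stood at 139, 146, 143 and 136 CPM at ZT0, 135, 115, 95.4 and 93.4 at ZT6, 112, 84.3, 55.2 and 129.8 at ZT12, and 198, 167, 178 and 132 at ZT18. Every SL ZT12 mouse was above every other SL mouse, and the SL ZT0 mice were all below the LL ZT0 mice, which lay close together. SL minus LL was -0.74 ± 0.18 at ZT0 (edgeR adjusted p = 0.00434), 0.94 ± 0.17 at ZT12 (adjusted p = 0.000348) and -0.62 ± 0.17 at ZT18 (adjusted p = 0.0201), and at ZT6 it was 0.30 ± 0.17 and did not pass. Of its stretches of 50 bases, 41.8% also occur in the pseudogene Gm12346.

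Hsp90ab1 (chr17:45567775-45573271, minus strand), the constitutive form and the most abundant member per length, moved less. Its means were 618 ± 49.7 CPM at ZT0, 662 ± 30.4 at ZT6, 859 ± 62.7 at ZT12 and 663 ± 36.7 at ZT18 in SL. Means in LL were 730.2 ± 48.3 CPM at ZT0, 647 ± 45.1 at ZT6, 629 ± 83.7 at ZT12 and 777 ± 44.0 at ZT18. SL minus LL passed at ZT12 alone, at 0.45 ± 0.08 (edgeR adjusted p = 0.000331), although at ZT0, ZT12 and ZT18 the SL and LL mice did not overlap.

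The mitochondrial members are Hspa9, the HSP70 of the matrix, and Hspd1 and Hspe1, the HSP60 and HSP10 subunits that close together around a folding chamber. Hspd1 (chr1:55077835-55088243, minus strand) stood at 359, 346, 362 and 338 CPM at ZT0, 429, 421, 424 and 427 at ZT6, 421, 370.3, 361 and 401 at ZT12, and 357, 351, 323 and 336 at ZT18 in SL. In LL its mice stood at 360.4, 367, 377 and 392 CPM at ZT0, 367, 351, 371 and 317 at ZT6, 435, 414, 295 and 399.5 at ZT12, and 402, 416, 422 and 421 at ZT18. In SL the ZT6 mice lay within a few CPM of each other and 3 of the 4 were above all other SL mice, and the LL ZT12 group was the widest, with replicate 3 at 295 CPM. The difference SL minus LL was 0.28 ± 0.08 at ZT6 (edgeR adjusted p = 0.0171) and -0.28 ± 0.08 at ZT18 (adjusted p = 0.0227), both lost when some single libraries were left out.

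Hspe1 (chr1:55088132-55091307, plus strand) is transcribed away from Hspd1, and both overlap by 112 bases on opposite strands. In SL its mice stood at 74.9, 72.7, 83.6 and 68.6 CPM at ZT0, 88.2, 87.8, 84.8 and 95.9 at ZT6, 84.7, 74.4, 81.8 and 87.3 at ZT12, and 73.7, 68.6, 65.0 and 77.9 at ZT18. In LL they stood at 74.4, 68.8, 85.7 and 84.8 CPM at ZT0, 66.5, 67.6, 73.6 and 69.8 at ZT6, 88.6, 82.7, 114 and 79.5 at ZT12, and 83.6, 93.0, 91.7 and 85.5 at ZT18. LL ZT12 replicate 3, the lowest of its group for Hspd1, was the highest of its group for Hspe1, at 114 CPM. SL minus LL for Hspe1 was 0.36 ± 0.09 at ZT6 (edgeR adjusted p = 0.00643) and -0.31 ± 0.09 at ZT18 (adjusted p = 0.0288), the latter lost without some single libraries. The pair had similar amplitudes, 0.17 in SL for both, and 0.12 (SE 0.04) for Hspd1 and 0.21 (SE 0.05) for Hspe1 in LL. Hspa9 was not called in any comparison between photoperiods or over the day, with SL minus LL of 0.22 ± 0.10 at ZT6 and -0.21 ± 0.10 at ZT18, although its SL and LL mice did not overlap at either time. Stretches of 50 bases shared with a pseudogene made up 38% for Hspd1 (Hspd1-ps3) and 17.9% for Hspe1 (AC117239.2).

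Small heat shock proteins hold unfolding proteins without ATP. Hspb1 (HSP25, chr5:135887919-135889563, plus strand) had the widest swing outside the HSP70 genes. In SL its mice stood at 1.5, 1.23, 1.39 and 1.04 CPM at ZT0, 1.51, 2.36, 2.64 and 1.83 at ZT6, 6.22, 5.46, 5.18 and 6.56 at ZT12, and 2.79, 3.38, 2.21 and 3.79 at ZT18. In LL they stood at 4.18, 3.80, 2.64 and 4.25 CPM at ZT0, 2.47, 1.93, 2.15 and 1.96 at ZT6, 1.39, 1.53, 2.80 and 1.44 at ZT12, and 3.88, 2.2, 3.39 and 2.44 at ZT18. Every SL ZT12 mouse was above every other SL mouse, all SL ZT0 mice were below all LL ZT0 mice, and the LL ZT12 mice were low apart from replicate 3. Between photoperiods, SL minus LL was -1.52 ± 0.24 at ZT0 (edgeR adjusted p = 5.03e-05) and 1.69 ± 0.21 at ZT12 (adjusted p = 1.32e-06), while at ZT6 and ZT18 it was -0.01 ± 0.23 and 0.03 ± 0.22. The log2 ratio of the SL to the LL amplitude of Hspb1 was 0.93 (SE 0.31), given as a description. The Hspb1 values rest on 11 to 97 reads per library, and 48.8% of its stretches of 50 bases also occur in the pseudogene Hsp25-ps1.

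Hspb8 (chr5:116408491-116422864, minus strand), which works with BAG3 in clearing damaged proteins, went with the HSP70 genes rather than with Hspb1 in its timing. Its means were 127 ± 17.5 CPM at ZT0, 171 ± 13.3 at ZT6, 123 ± 14.3 at ZT12 and 129 ± 10.4 at ZT18 in SL. In LL they were 131 ± 35.6 CPM at ZT0, 126 ± 13.3 at ZT6, 148 ± 14.4 at ZT12 and 171 ± 18.1 at ZT18. SL minus LL was 0.44 ± 0.13 at ZT6 (edgeR adjusted p = 0.0170) and -0.40 ± 0.13 at ZT18 (adjusted p = 0.0460), each lost when some single libraries were left out. Cryab, which codes for alpha-B crystallin and is abundant in muscle, was not called in any comparison. At LL ZT18 its mice stood at 3.32, 3.95, 6.29 and 2.77 CPM, where the same 4 libraries had 36.6, 79.2, 265 and 16.9 CPM of summed muscle markers. The order of the 4 mice was the same for both measures, and the part of muscle RNA in Cryab was not tested. Cryab overlaps Hspb2 on the opposite strand by 1030 bases.

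The J-domain proteins hand clients to HSP70. Of the 6, Dnaja1, Dnaja2, Dnajb1, Dnajb4 and Dnajb6 changed over the day in SL and in LL, and all 5 were higher in SL at ZT6 and lower in SL at ZT18. Dnajb6 (chr5:29735688-29818134, plus strand), which keeps aggregation-prone proteins soluble, had means of 19.3 ± 2.22 CPM at ZT0, 26.4 ± 2.99 at ZT6, 17.5 ± 1.96 at ZT12 and 16.6 ± 1.16 at ZT18 in SL. The LL means were 17 ± 0.744 CPM at ZT0, 17.5 ± 0.655 at ZT6, 24.7 ± 0.257 at ZT12 and 22.8 ± 2.44 at ZT18. The difference SL minus LL was 0.59 ± 0.09 at ZT6 (edgeR adjusted p = 2.12e-05), -0.50 ± 0.09 at ZT12 (adjusted p = 0.000262) and -0.46 ± 0.09 at ZT18 (adjusted p = 0.000944). It was the only member called lower in SL at ZT12.

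Dnaja1 (chr4:40722150-40737149, plus strand), a partner of HSC70 at membranes and in the cytosol, had means of 121 ± 13.3 CPM at ZT0, 167 ± 19.5 at ZT6, 121 ± 11.9 at ZT12 and 112 ± 11.7 at ZT18 in SL. LL mice averaged 112 ± 13.7 CPM at ZT0, 115 ± 15 at ZT6, 141 ± 11.5 at ZT12 and 158 ± 26.5 at ZT18. Its differences were 0.54 ± 0.12 at ZT6 (edgeR adjusted p = 0.00133) and -0.49 ± 0.12 at ZT18 (adjusted p = 0.00574). Dnajb1 (HSP40, chr8:83608193-83612653, plus strand), the partner of the inducible HSP70, had means of 27.8 ± 4.30 CPM at ZT0, 37.4 ± 4.23 at ZT6, 30.7 ± 2.25 at ZT12 and 27.9 ± 1.04 at ZT18 in SL. Means in LL were 26.8 ± 4.88 CPM at ZT0, 27.2 ± 2.44 at ZT6, 27.6 ± 3.09 at ZT12 and 41.1 ± 4.66 at ZT18. Every SL ZT6 mouse and every LL ZT18 mouse was above the other mice of its photoperiod for Dnajb1, as for Hspa1a, Hspa1b and Hspa8.

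Dnajb4 (chr3:152178511-152210302, minus strand) had means of 34.3 ± 3.72 CPM at ZT0, 44.1 ± 5.06 at ZT6, 35.4 ± 2.42 at ZT12 and 33.8 ± 2.14 at ZT18 in SL. In LL they were 34.1 ± 2.73 CPM at ZT0, 34.2 ± 3.44 at ZT6, 35.5 ± 6.05 at ZT12 and 44.7 ± 6.61 at ZT18. Its differences of 0.37 ± 0.11 at ZT6 (edgeR adjusted p = 0.0274) and -0.40 ± 0.12 at ZT18 (adjusted p = 0.0234) were each lost when some single libraries were left out. Dnaja2 differed by 0.30 ± 0.06 at ZT6 and -0.28 ± 0.06 at ZT18 and kept both calls without any 1 library. Dnajb2, which directs clients to degradation, was not called in any comparison, with amplitudes of 0.09 in SL and 0.03 in LL.

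The transcript of the regulator HSF1 was not called in any comparison. Hsf1 (chr15:76477422-76501913, plus strand) stood at 13.4, 14.4, 15.2 and 14.7 CPM at ZT0, 14, 16.6, 14.3 and 16.5 at ZT6, 14.4, 14.7, 15.7 and 17.9 at ZT12, and 16.7, 12.7, 17.2 and 17.3 at ZT18 in SL. In LL its mice stood at 13.7, 16.2, 14.3 and 16.8 CPM at ZT0, 13.4, 13, 15.1 and 14.3 at ZT6, 12.8, 13.4, 19.1 and 12.5 at ZT12, and 17, 17.6, 19.1 and 15.9 at ZT18. The groups overlapped widely in SL, and in LL the ZT18 mice were above the ZT6 mice and overlapped with the others. The time of day test gave an adjusted p of 0.804 for SL and 0.168 for LL (edgeR). HSF1 is known to be regulated mainly as a protein, which these data do not measure. Bag3 (chr7:128523616-128546981, plus strand), a nucleotide exchange factor that links HSP70 to autophagy and is itself a target of HSF1, had means of 23.4 ± 2.25 CPM at ZT0, 29.8 ± 3.10 at ZT6, 29.9 ± 2.50 at ZT12 and 26.8 ± 0.775 at ZT18 in SL. The LL means were 27.2 ± 6.16 CPM at ZT0, 27 ± 3.14 at ZT6, 22.6 ± 2.02 at ZT12 and 34.7 ± 8.73 at ZT18. Time of day passed in LL (edgeR adjusted p = 0.0115) and not in SL (adjusted p = 0.192), and the LL call was lost without the 4 libraries highest in muscle markers. Its amplitudes were 0.19 (SE 0.07) in SL and 0.23 (SE 0.07) in LL, and the interaction passed (adjusted p = 0.00870).

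Of the co-chaperones, Chordc1, Ahsa1 and Stip1 changed over the day in SL and in LL, Fkbp4 in SL, and St13 in neither. Chordc1 (chr9:18292125-18317442, plus strand) binds HSP90 through its zinc-binding domains. Its means were 28.9 ± 2.94 CPM at ZT0, 43.3 ± 5.39 at ZT6, 37.2 ± 3.18 at ZT12 and 32.9 ± 4.64 at ZT18 in SL. LL mice averaged 37.0 ± 4.93 CPM at ZT0, 31.6 ± 6.57 at ZT6, 33.6 ± 7.45 at ZT12 and 45.6 ± 8.75 at ZT18. Chordc1 followed the HSP70 genes, with 0.46 ± 0.15 at ZT6 (edgeR adjusted p = 0.0339) and -0.47 ± 0.15 at ZT18 (adjusted p = 0.0454), each lost without some single libraries.

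Stip1 (HOP, chr19:7020702-7039967, minus strand) passes clients from HSP70 to HSP90. Its means were 62.0 ± 7.83 CPM at ZT0, 68.9 ± 4.53 at ZT6, 81.8 ± 5.93 at ZT12 and 67.2 ± 4.22 at ZT18 in SL. Means in LL were 70.6 ± 7.08 CPM at ZT0, 68.9 ± 4.77 at ZT6, 66.3 ± 7.94 at ZT12 and 84.2 ± 4.12 at ZT18. Ahsa1 (chr12:87266479-87273998, plus strand) stimulates the ATPase of HSP90. Its means were 68.1 ± 5.06 CPM at ZT0, 75.8 ± 6.35 at ZT6, 86.3 ± 5.22 at ZT12 and 73.5 ± 3.10 at ZT18 in SL. In LL they were 75.8 ± 2.75 CPM at ZT0, 71.7 ± 3.26 at ZT6, 72.2 ± 2.49 at ZT12 and 85.7 ± 1.30 at ZT18. Both went with the HSP90 genes in SL, where ZT12 was highest, and in LL both were highest at ZT18. SL minus LL at ZT12 was 0.30 ± 0.09 for Stip1 (edgeR adjusted p = 0.0239) and 0.26 ± 0.06 for Ahsa1 (adjusted p = 0.00627), and at ZT18 it was -0.32 ± 0.09 and -0.22 ± 0.06. The Stip1 calls at ZT12 and ZT18 and the Ahsa1 call at ZT18 were lost without some single libraries.

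Fkbp4 (FKBP52, chr6:128429735-128438677, minus strand) serves the steroid receptor complexes of HSP90. Its means were 157 ± 19.1 CPM at ZT0, 160.5 ± 14.1 at ZT6, 194 ± 6.07 at ZT12 and 164 ± 9.90 at ZT18 in SL. The LL means were 171 ± 14.3 CPM at ZT0, 158 ± 9.70 at ZT6, 169 ± 6.52 at ZT12 and 179 ± 3.87 at ZT18. No single ZT passed for Fkbp4, and the interaction passed narrowly (edgeR adjusted p = 0.0490). St13, the HSP70-interacting protein HIP, had amplitudes of 0.05 in both photoperiods and passed in no comparison.

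The 7 subunits of the CCT chaperonin, the ring that folds actin and tubulin, were nearly flat. Neither photoperiod gave a time of day call for any of them (edgeR), and at an unadjusted p under 0.05 there was Cct3 in SL alone. Cct3 (chr3:88297116-88321767, plus strand) had means of 84.5 ± 7.51 CPM at ZT0, 79.1 ± 4.37 at ZT6, 92.0 ± 7.07 at ZT12 and 89.2 ± 3.5 at ZT18 in SL. LL mice averaged 83.9 ± 2.19 CPM at ZT0, 92.2 ± 5.24 at ZT6, 81.7 ± 1.88 at ZT12 and 85.8 ± 1.84 at ZT18. It was the only subunit called in the interaction (edgeR adjusted p = 0.00854) and the only member called lower in SL at ZT6, at -0.22 ± 0.06 (adjusted p = 0.0186), a call lost without some single libraries.

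The next 3 by amplitude stayed within narrower limits. Cct7 (chr6:85451514-85468475, plus strand) had means of 89.4 ± 3.58 CPM at ZT0, 93.0 ± 6.50 at ZT6, 89.5 ± 5.12 at ZT12 and 85.8 ± 3.34 at ZT18 in SL. Means in LL were 83.5 ± 4.72 CPM at ZT0, 86.7 ± 3.68 at ZT6, 93.4 ± 5.91 at ZT12 and 91.5 ± 5.29 at ZT18. Cct5 had means of 106 ± 5.30 CPM at ZT0, 112 ± 5.95 at ZT6, 117 ± 6.27 at ZT12 and 112 ± 5.04 at ZT18 in SL. In LL they were 113 ± 1.17 CPM at ZT0, 114 ± 3.25 at ZT6, 112 ± 7.22 at ZT12 and 121 ± 2.86 at ZT18. Neither gene was called in any comparison. Cct8 had means of 136 ± 3.13 CPM at ZT0, 132 ± 9.93 at ZT6, 133 ± 6.80 at ZT12 and 134 ± 6.36 at ZT18 in SL. The LL means were 131 ± 1.98 CPM at ZT0, 137 ± 7.19 at ZT6, 144 ± 7.5 at ZT12 and 138 ± 3.39 at ZT18. The other 3 were flat as well. Over all mice Cct4, with the smallest mean amplitude of the subunits, lay between 80.1 and 95.9 CPM. Tcp1 lay between 128 and 164 CPM and Cct2 between 87.4 and 107 CPM. Amplitudes of the 7 ran from 0.01 to 0.11 in SL and from 0.00 to 0.09 in LL, whereas those of the 4 HSP70 genes ran from 0.44 to 1.61 and from 0.52 to 1.5.

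Peak times of the 19 members called in both photoperiods lay between 4.81 and 12.95 h in SL and between 14.33 and 22.31 h in LL. In SL the widest gap between neighbouring peaks, 1.96 h, divided 13 earlier members from 6 later ones, a division made after the values were seen and given without a test. The earlier peaks, from 4.81 to 9.04 h, were those of the 4 HSP70 genes, the 5 J-domain genes, Hspe1, Hspb8, Chordc1 and Hsph1. The later peaks, from 11 to 12.95 h, were those of Hsp90aa1, Hsp90ab1, Hspa4l, Ahsa1, Stip1 and Hspb1. In LL the earlier members peaked from 14.33 to 18.98 h and the later ones from 19.03 to 22.31 h. The LL ranges met, with Chordc1 at 18.98 h (SE 1.04) beside Ahsa1 at 19.03 h (SE 0.92). Such standard errors do not resolve the division in LL.

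The step from ZT6 to ZT12 in SL was added after the group levels were seen, on the libraries that gave the peaks, so it describes the order and is no independent test of it. ZT12 minus ZT6 was called for 12 members, where 10.1% of all tested genes were called. Lower at ZT12 were 8 (4.64% of all genes), namely the 4 HSP70 genes, Hspb8, Dnaja1, Dnaja2 and Dnajb6. Higher at ZT12 were 4 (5.47% of all genes), namely Hspb1 at 1.48 ± 0.21 (log2, SE), Hsp90ab1 at 0.38 ± 0.08, Fkbp4 at 0.28 ± 0.08 and Cct3 at 0.22 ± 0.06. Hspa4l, at 0.47 ± 0.16, and Hsp90aa1, at 0.43 ± 0.17, were not called. ZT0 minus ZT18 in LL was added in the same way, after ZT18 had been seen to be highest, and is a description as well. It was called for 10 members, all lower at ZT0, where 4.88% of all tested genes were called, 2.59% lower and 2.29% higher. They were the 4 HSP70 genes, Hsph1 and the 5 J-domain genes Dnaja1, Dnaja2, Dnajb1, Dnajb4 and Dnajb6. Hsp90aa1, at -0.26 ± 0.17, and Hspa4l, at -0.00 ± 0.16, were not among them. Without the 4 libraries highest in muscle markers the LL count was 6, where 275 of all genes were called against 706 with all libraries. The LL count was also 6 without LL ZT0 replicate 3 or without LL ZT18 replicate 1.

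SL peak minus LL peak had a median of -9.83 h over the 19 members, from -11.05 to -7.48 h, beside a median of -10.09 h for the 1752 genes called in both. The negative sign means an earlier ZT in SL. The widest shifts were those of Hspa1b at -11.05 h (SE 1.02) and Hspb8 at -11.03 h (SE 1.6), and the narrowest those of Stip1 at -7.48 h (SE 1.42) and Ahsa1 at -7.52 h (SE 1.16). Hsp90ab1 stood at -8.60 h (SE 1.15) and Hsp90aa1 at -9.83 h (SE 0.98). With standard errors from 0.74 to 1.62 h, no order among these shifts was tested.

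**Figure D4:**
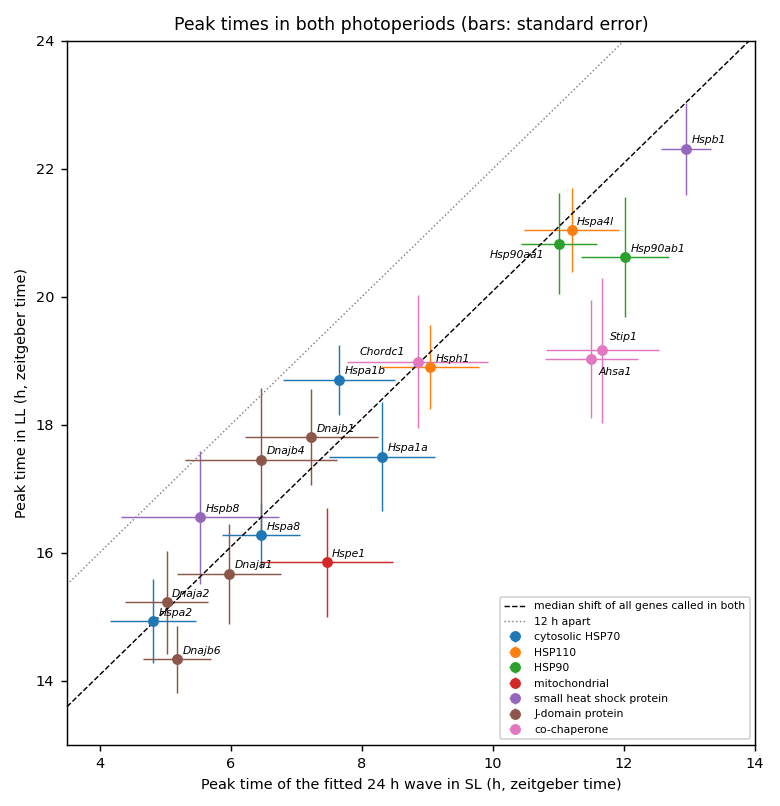
Peak time of the fitted 24 h wave in SL (horizontal axis, h) against that in LL (vertical axis, h) for the 19 members called for time of day in both, coloured by role, with bars of 1 standard error. The points follow the dashed line of the median shift of all genes called in both (-10.09 h), with the HSP70 and J-domain genes at the lower left and the HSP90 genes, Hspa4l and Hspb1 at the upper right.

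The second question was how the photoperiods differed at the same ZT. The photoperiod by ZT interaction was called for 24 of 35 members, where 32.7% of all tested genes were called, and the difference in 24 h rhythm for 24, where 36.0% were called. The 11 members without an interaction call were Hspa9, Cryab, Dnajb2, Hsf1, St13 and 6 of the CCT subunits. Without LL ZT12 replicate 3 the counts were 26 and 28, and without the 4 libraries highest in muscle markers 22 and 21. Without those 4 libraries 3846 and 4087 of all genes were called, against 4720 and 5205 with all libraries.

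At ZT0 3 members were called, all lower in SL, Hspb1, Hsp90aa1 and Hspa4l, where 11% of all tested genes were called, 4.97% lower and 6.07% higher. Without LL ZT12 replicate 3 the ZT0 count was 5, and it was also 5 by DESeq2. At ZT6 15 members were called, where 15.3% of all tested genes were. Higher in SL were 14 (6.90% of all genes), the 13 members with earlier peaks and Hspd1, and 1 was lower (8.38% of all genes), Cct3. At ZT12 7 members were called (11 by DESeq2), where 12.4% of all tested genes were. Higher in SL were 6 (6.05% of all genes), the 6 members with later peaks, and 1 was lower (6.40% of all genes), Dnajb6. The division into earlier and later peaks was made from the same SL mice at ZT6 and ZT12. Its match with the ZT6 and ZT12 calls is therefore largely built in and no independent support.

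At ZT18 17 members were called, all lower in SL, where 9.21% of all tested genes were called, 4.39% lower and 4.82% higher. They included all 14 that were higher in SL at ZT6, and Hsp90aa1, Ahsa1 and Stip1. The median difference of all 35 members was -0.28 (log2) at ZT18 and 0.15 at ZT6, beside 0.01 and -0.01 for all tested genes. Of the 11 tested muscle markers 1 was called lower in SL at ZT18 and all 11 were called for time of day in LL, with summed levels of 16.9 to 265 CPM at LL ZT18 and 3.09 to 45.3 CPM at SL ZT18. Without the 4 libraries highest in these markers, which leaves 2 mice at LL ZT18, 6 members passed, Hspa1a, Hspa1b, Hspa8, Hsph1, Dnajb1 and Dnajb6. Over all genes the ZT18 calls then numbered 446, against 1331 with all libraries. All 17 members kept their sign in that fit, with a median of -0.49 against -0.47 with all libraries. The ZT18 count was 10 without SL ZT18 replicate 3, 11 without SL ZT18 replicate 4, 11 without LL ZT18 replicate 1 and 22 without LL ZT12 replicate 3. Called whichever single library was left out were 9 members at ZT18, the 4 HSP70 genes, Hsph1, Dnaja1, Dnaja2, Dnajb1 and Dnajb6. The same 9 members and Hspe1 made up the 10 that were so at ZT6.

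**Figure D5:**
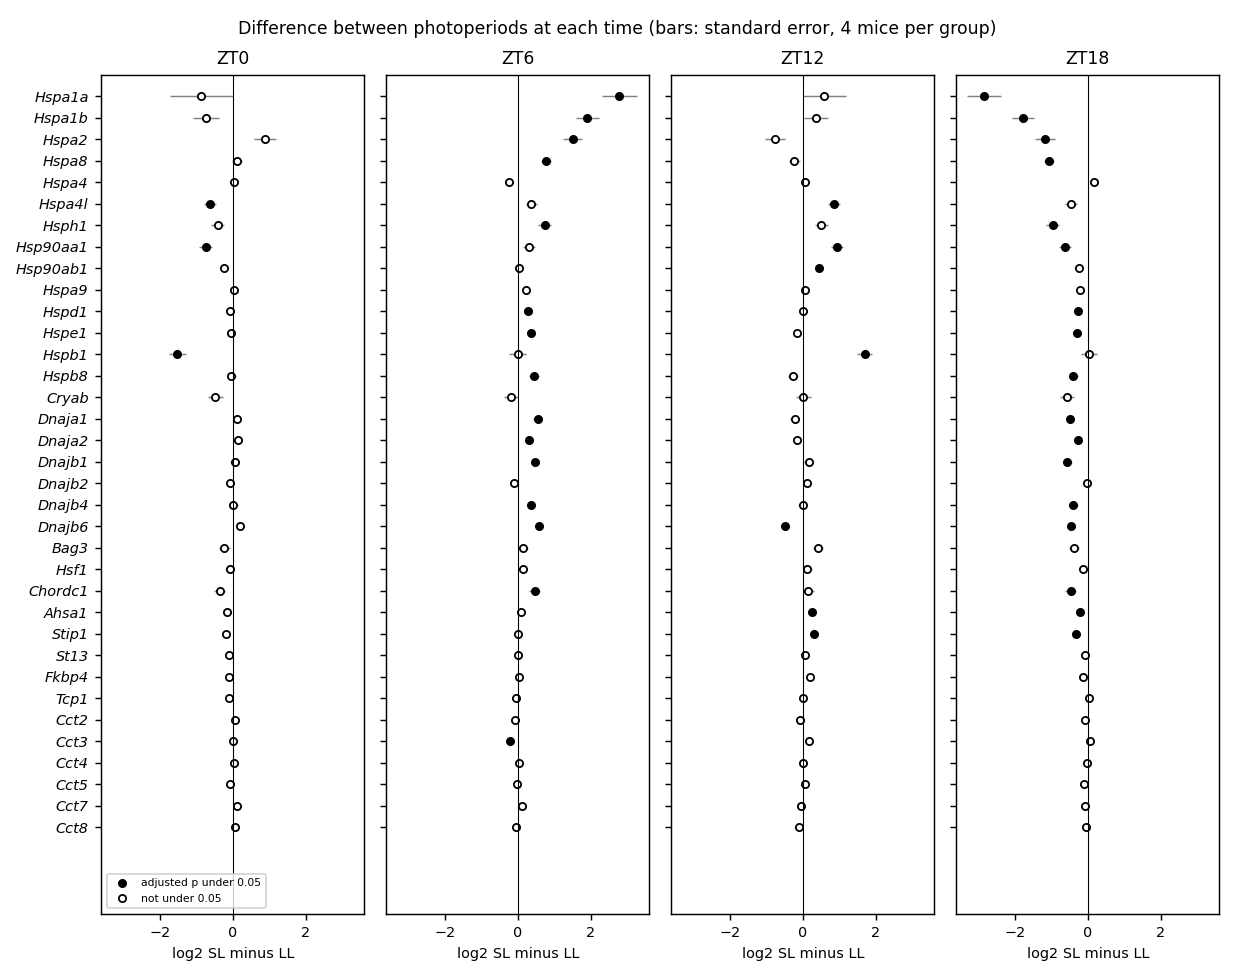
Difference SL minus LL (log2, horizontal axis) of each of the 35 genes at ZT0, ZT6, ZT12 and ZT18, with bars of 1 standard error; filled points have an edgeR adjusted p under 0.05. Filled points lie to the right of 0 at ZT6 except for Cct3, to the right at ZT12 except for Dnajb6, and to the left at ZT0 and ZT18.

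The mice themselves were compared at each ZT as well. SL and LL mice did not overlap for 6 of 35 members at ZT0, 16 at ZT6, 12 at ZT12 and 18 at ZT18, where 16.7%, 20.4%, 14.4% and 17.5% of all tested genes did not. The ZT0 count is near the share of all genes. Among these members, SL mice were lower at ZT0 except for Dnaja2, and higher at ZT6 except for Hspa4 and Cct3. They were higher at ZT12 except for Hspa2, Dnajb6 and Cct2, and lower at ZT18 except for Hspa4. No member separated SL from LL mice at all 4 ZTs. Hspa2, Hsp90aa1, Hsp90ab1, Dnaja2 and Dnajb6 did so at 3.

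Averaged over the 4 ZTs, 0 members differed between photoperiods, and 0% of all tested genes did. At an unadjusted p under 0.05 there was 1 member, Cryab at -0.31 (log2, lower in SL), and 730 genes in all, and DESeq2 also called 0 members.

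The 24 h wave leaves out a sharper pattern, the 12 h component, which compares ZT0 and ZT12 with ZT6 and ZT18. In SL it was called for 1 member, Hspa1b, where 0.636% of all tested genes were called. The mean log2 level of Hspa1b at ZT0 and ZT12 minus that at ZT6 and ZT18 was -1.16 ± 0.23 (edgeR adjusted p = 0.0127), beside -0.91 ± 0.23 in LL, which did not pass (adjusted p = 0.223). In LL 0 members were called and 0.00692% of all genes. At an unadjusted p under 0.05 (edgeR) there were 9 members, and 1153 of all 14456 tested genes. DESeq2 called 1 member and 18 genes in all. When the LL times were taken 12 h later, so that SL ZT6 met LL ZT18, the interaction was called for 0 members, where 0.519% of all tested genes were called. At an unadjusted p under 0.05 (edgeR) there were 8 members, and 1422 of all 14456 tested genes. DESeq2 called 3 members and 228 genes in all. That offset was chosen with an earlier result of these data known.

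Among 57 other chaperone and co-chaperone genes, listed by function, the time of day test called 7 in each photoperiod (12.3%, beside 19.1% of all tested genes in SL and 18.3% in LL) and the interaction 9 (15.8%, beside 32.7%). Their median amplitude was 0.10 in both photoperiods, beside 0.15 in SL and 0.16 in LL for all tested genes and 0.19 and 0.17 for the 35 members. The smallest interaction p-values among them were those of Clpx (edgeR adjusted p = 1.39e-14), the ATPase of a mitochondrial protease, and Fkbp5 (adjusted p = 7.35e-10), a glucocorticoid-induced HSP90 co-chaperone. Clpx stood at 105 ± 12.3 CPM at SL ZT0 and 505 ± 38.9 CPM at SL ZT12, against 574 ± 46.3 and 84.7 ± 12.6 CPM in LL. Fkbp5 was highest at SL ZT6 (104 ± 20 CPM) and LL ZT18 (80.3 ± 5.75 CPM), the groups in which Hspa1a, Hspa1b and Hspa8 were highest, and its relative Fkbp4 was not highest at SL ZT6.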

How the data were processed

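RNA of 32 livers was read as polyadenylated, stranded libraries, per the labels' protocols. Base calls were made with bcl2fastq 2.20.0, reads aligned with STAR 2.7.2b to GRCm38 (mm10) and counted with featureCounts 1.6.2, per the submitters' processing notes. Which annotation and strand setting the counting used is not stated in the labels. Deposited by the authors were raw counts per gene, and every value here comes from these. Log2 values deposited by the authors for 13432 genes served to name the genes, and differed by at most 0.0213 from log2 CPM computed from the counts.

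Counts were filtered by edgeR's filterByExpr, scaled by TMM and fitted in 1 model of 8 group means in edgeR 4.0.16 (limma 3.58.1, R 4.3.3, quasi-likelihood test, Benjamini-Hochberg over 14456 genes, threshold 0.05). SEs of waves come from the delta method. DESeq2 1.42.0, other scalings and filters, a replicate block and leaving out libraries were tried. Members and lists were chosen with earlier results of these data known. Group means are named for the 2 members with the largest mean amplitude of each role (4 in roles of 5 or more), and every mouse for the 6 largest overall and Hspa1a, Hspa1b, Hspd1, Hspe1 and Hsf1.

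On simulated counts of 14275 genes with the spread of these libraries, the interaction test recovered 33 of 100 genes changed by a wave of amplitude 0.2 (log2) and 90 of 100 changed by 0.5, and called 6 unchanged genes. For time of day in SL it recovered 8 and 70 of 100 and for LL 12 and 77 of 100. The simulated waves peaked nearly opposite in SL and LL, so recovery by the interaction test at smaller shifts was not tested. Changed genes were drawn above a minimum mean level, which Hspa1a, at a mean of 0.564 CPM, does not reach. Depth ranged from 9095615 to 27462776 counts.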

Additional observations from a re-analysis of the deposited data

Results flagged for a closer look

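In 24 members the time course differed between SL and LL by the photoperiod by ZT interaction (edgeR quasi-likelihood test, Benjamini-Hochberg adjusted). The adjusted p was 1.18e-06 for Hspa1a, 5.29e-07 for Hspa1b, 1.72e-06 for Hspa2 and 1.96e-07 for Hspa8. It was 0.0354 for Hspa4, 8.54e-06 for Hspa4l and 9.61e-06 for Hsph1. The HSP90 genes had 4.05e-06 for Hsp90aa1 and 5.48e-05 for Hsp90ab1, and the mitochondrial genes 0.00239 for Hspd1 and 0.00101 for Hspe1. Hspb1 had 6.29e-08 and Hspb8 0.00245. The J-domain genes had 6.77e-05 for Dnaja1, 1.15e-05 for Dnaja2, 0.000113 for Dnajb1, 0.00432 for Dnajb4 and 5.30e-08 for Dnajb6. Bag3 had 0.00870, Chordc1 0.00227, Ahsa1 0.000283, Stip1 0.00150, Fkbp4 0.0490 and Cct3 0.00854.

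In 17 of 280 groups of 4 mice (6.07%), 1 mouse lay far from the other 3 by Dixon's test, which chance does in about 1 of 20 groups. Of these, 5 were LL ZT12 replicate 3, low for Hspa4 (96.9 CPM) and Dnajb4 (26.4 CPM) and high for Hspb1 (2.80 CPM), Hsf1 (19.1 CPM) and Cct7 (102 CPM). Replicate 1 of LL ZT12 was high for Dnajb6 (25.1 CPM) and low for Cct3 (78.9 CPM). Hspa1b was high in SL ZT0 replicate 4 (3.5 CPM) and SL ZT12 replicate 4 (4.53 CPM), Hspa2 low in SL ZT12 replicate 1 (0.950 CPM) and Hspa4l high in SL ZT0 replicate 3 (19.3 CPM). Dnajb2 was high in SL ZT6 replicate 4 (61.8 CPM) and low in SL ZT12 replicate 3 (62.1 CPM) and LL ZT18 replicate 4 (53.3 CPM). Low values were also those of Cryab in LL ZT6 replicate 1 (2.2 CPM), Dnajb1 in SL ZT18 replicate 3 (26.4 CPM) and Hsf1 in SL ZT18 replicate 2 (12.7 CPM).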

How the results depend on the processing

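No log2 difference called at a single ZT reversed its direction under the alternatives run, and other results were not checked for direction. Of the log2 differences at a single ZT, 447 values kept their side of the threshold and 52 lost it. Some log2 amplitudes moved by more than their SE. Leaving out 1 library gave 1.47 to 1.97 for Hspa1a, 0.39 to 0.51 for Hspa4l and 0.11 to 0.17 for Fkbp4 in SL, and 0.94 to 1.27 for Hspa1b and 0.54 to 0.73 for Hspb1 in LL. Hspb8 in LL was 0.31 without the 4 libraries highest in muscle markers. Counts of members called moved by over 1.5 times as follows, and the cause was not tested. With only the groups compared, time of day in LL gave 11 and ZT0 minus ZT18 in LL 6. Over all genes these fits called 1655 and 404, against 2650 and 706. DESeq2 gave 5 at ZT0, 11 at ZT12, 1 for the 12 h component in LL and 3 with LL taken 12 h later. Over all genes DESeq2 called 1689, 1916, 18 and 228 there, against 1596, 1799, 1 and 75. With no filter the 12 h component in LL and LL taken 12 h later gave 1 and 1, beside 11 and 250 of all genes. Without the 4 libraries highest in muscle markers, an alternative chosen after seeing the data, ZT18 gave 6 and ZT0 minus ZT18 in LL 6. All genes called were then 446 and 275, against 1331 and 706.

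Leaving out 1 library at a time gave 17 to 23 for time of day in SL, 15 to 25 in LL, 22 to 26 for the interaction, 23 to 28 for the 24 h rhythm, 2 to 5 at ZT0, 12 to 17 at ZT6, 6 to 9 at ZT12 and 10 to 22 at ZT18. It gave 0 to 0 for the mean of 4 ZTs, 1 to 1 and 0 to 0 for the 12 h component in SL and LL, 0 to 2 with LL taken 12 h later, 10 to 17 for ZT12 minus ZT6 in SL and 6 to 13 for ZT0 minus ZT18 in LL. With LL taken 12 h later the count was 2 without LL ZT12 replicate 3 and 1 without SL ZT0 replicate 3 or LL ZT18 replicate 1.

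With the replicate number as a block the counts were 21 and 20 for time of day in SL and LL, 24 for the interaction and 24 for the rhythm, 3, 16, 7 and 16 at the 4 ZTs, and 9 for ZT0 minus ZT18 in LL. Of 112 pairs of libraries with the same number, 17 had deviations correlated above 0.1 (mean -0.000292), and 9 of 32 libraries correlated best with their own number, so the numbers were not taken to pair the mice. Few reads limit Hspa1a (0 to 41 per library), whose range of log2 CPM in SL was 2.88, and 3.80 or 2.11 with a prior count of 0.5 or 5.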
